A study of Mus musculus with 90 samples.

Results

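The 7 genes described here, Agr2, Clca1, Muc5b, Muc5ac, Spdef, Foxa3 and Tff2, are the genes by which mucous metaplasia of the airway is usually recognised. They were chosen by symbol, and each was read from the brightest of the probe sets annotated to it alone, so that they make up 7 of 17097 genes measured. The platform held 9 probe sets for them among 45037 that are not controls. All 7 genes were described over 18 groups of mice and in each animal.

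In mucous metaplasia, the club and ciliated cells that line the conducting airways give way to mucus-filled goblet cells. The transcription factors Spdef and Foxa3 drive that programme, the gel-forming mucins Muc5b and Muc5ac are its cargo, and Agr2, a protein disulfide isomerase of the endoplasmic reticulum, is needed for the mucins to fold. Clca1 (gob-5 in older mouse work) is a secreted protease that acts on mucus, and Tff2 is a small trefoil peptide secreted with it. Healthy mouse airways make Muc5b in club cells but little Muc5ac.

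Lungs of 90 adult male C57Bl/6 mice from Taconic were profiled whole, with 1 array per animal and 5 animals in each of 18 groups. The KO mice lack Cyp2f2, a cytochrome P450 of club cells that oxidises styrene. The TG mice lack it as well and carry human transgenes that the labels write as 2F1, SA13 and 2B6 and sum up as CYP2F1 humanized. The WT mice keep Cyp2f2 and carry no transgene. The labels do not name the promoter that drives the transgenes. Each strain breathed air (0 ppm), 40 ppm or 120 ppm styrene for 6 h on 5 days per week, over 1 week or 4 weeks, and lungs were collected the next morning. Labels call the animals of a group biological replicates, so the spread given is between animals.

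Values are log2 intensities of probe sets, and a difference of 1 means a 2-fold ratio. Array medians ran between 4.42 and 4.86, and a value below 4.42 is called dim, a level at which signal and background are hard to tell apart. No array repeated another, since the most alike pair correlated at 0.997 and 0 pairs held the same values. Cyp2f2 lay between 11.53 and 12.28 in the 30 KO lungs and between 11.58 and 12.13 in the 30 TG lungs, against 12.73 to 13.39 in the 30 WT lungs, so the targeted gene separated KO and TG animals from WT animals without overlap. It averaged 11.92 in KO and 11.88 in TG lungs, against 13.12 in WT lungs, and so stayed far above the dim level in mice labelled as lacking it. These values therefore tell the strains apart but do not show that the transcript was absent, and where the probe set lies relative to the deleted part was not examined. For 4 arrays limma gave a weight below 0.25, and the calls were also made without them. Differences come from limma with the spread pooled over all 18 groups, and a gene passed at an adjusted p under 0.05 over all 17097 genes.

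With all arrays weighted alike and no covariate, Agr2 was the only member to pass in an exposed group against its controls. The stretch before its transcription start is shown because the Agr2 result leads what follows, and to show where motifs were searched. It covers the 250 bases upstream of the transcription start in RefSeq for GRCm38.p6, at chr12:35992675-35992924 on the plus strand.
Agr2: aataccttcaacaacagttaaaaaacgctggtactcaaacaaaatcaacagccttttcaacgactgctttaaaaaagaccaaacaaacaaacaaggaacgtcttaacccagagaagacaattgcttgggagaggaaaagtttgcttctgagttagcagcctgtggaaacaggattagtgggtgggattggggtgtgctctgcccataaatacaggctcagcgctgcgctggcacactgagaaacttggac
No letters are capitals, because none of the motifs named below was found. Only matches to each motif as written were sought, so looser forms of it may be present. The window searched ran on for 50 bases into the transcript, 300 in all, and windows were held for 3 of the 7 genes, Agr2, Spdef and Foxa3. Altogether 4 motifs were looked for on both strands, and 0 of the 3 windows held any of them. They were TGTTTAC for forkhead factors such as Foxa3 (in 3.65% of 32851 windows), CCGGAT for Spdef-like ETS factors (6.04%), TTC and GAA with 4 bases between them for Stat6 (6.95%) and CACGTG, an E-box (7.15%).

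At 1 week in WT lungs, Agr2 measured 4.14, 4.37, 4.62, 4.89 and 5.09 in the 5 animals at 0 ppm. At 40 ppm the values were 6.68, 7.08, 7.18, 7.57 and 8.64. At 120 ppm they were 6.08, 6.20, 7.27, 7.59 and 7.92. Every exposed WT animal lay above every control animal at both doses, and the doses overlapped each other. Agr2 averaged 7.43 ± 0.75 at 40 ppm and 4.62 ± 0.38 at 0 ppm (SD, n = 5 each), a 6.99-fold rise (log2 change 2.81, SE 0.47, 95% interval 1.88 to 3.73, adjusted p = 1.15e-05). At 120 ppm the mean was 7.01 ± 0.83, a 5.24-fold rise over the same controls (2.39, SE 0.47, interval 1.46 to 3.32, adjusted p = 0.000218). The 120 ppm mean minus the 40 ppm mean was -0.42 (interval -1.35 to 0.51, adjusted p = 1.00), where 0% of all genes passed, which does not separate the doses and does not show that they act alike. Two-sided exact permutation of 5 against 5 animals gave its smallest possible p, 0.00794, for Agr2 at each dose, which is 0.167 after adjustment over 84 such tests.

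Agr2 was 1 of 7 members to pass at 40 ppm, where 3.82% of all genes rose, and 1 of 7 at 120 ppm, where 3.94% did. It was also the single member with no overlap between the WT groups at each dose, as were 5.66% of genes at 40 ppm and 1.33% at 120 ppm on the higher side. The median over the 7 genes was 0.48 at 40 ppm beside 0.03 over all genes, and 0.33 at 120 ppm beside 0.00. A second Agr2 probe set, dimmer at a mean of 2.62, gave 1.96 (adjusted p = 2.37e-06) and 1.57 (adjusted p = 0.000187). All its group means were dim, the highest being 4.11 in WT lungs at 40 ppm and 1 week. In whole-lung RNA, more cells that make Agr2 and more Agr2 RNA per cell cannot be told apart.

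Agr2 in KO lungs did not show the WT pattern. At 1 week, KO animals measured 4.89, 5.73, 6.53, 6.72 and 6.82 at 0 ppm. The 40 ppm animals measured 4.64, 5.16, 5.28, 5.70 and 7.37, and the 120 ppm animals 4.18, 4.55, 5.15, 5.16 and 6.73. All 3 KO groups overlapped, with the control group reaching as high as most exposed animals. The change was -0.51 at 40 ppm (interval -1.43 to 0.42) and -0.98 at 120 ppm (interval -1.91 to -0.06), and neither passed, with adjusted p of 1.00 and 0.935.

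TG lungs at 1 week measured 4.74, 5.14, 5.63, 5.86 and 5.98 for Agr2 at 0 ppm. They measured 3.88, 4.68, 4.80, 4.96 and 5.83 at 40 ppm, and 4.10, 4.40, 4.41, 4.65 and 4.83 at 120 ppm. The 120 ppm animals sat near the bottom of the range, 4 of 5 below all TG controls, and overlapped the controls by 1 animal. Neither change passed, at -0.64 for 40 ppm (interval -1.57 to 0.29, adjusted p = 0.984) and -0.99 for 120 ppm (interval -1.92 to -0.07, adjusted p = 0.514).

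The difference between strains in the Agr2 change was itself tested at 1 week. The KO change minus the WT change was -3.31 at 40 ppm (SE 0.66, interval -4.62 to -2.00, adjusted p = 0.00179). At 120 ppm it was -3.37 (SE 0.66, interval -4.69 to -2.06, adjusted p = 0.000774). That call alone was lost when only the arrays compared entered the fit, with an adjusted p of 0.0581 for the same -3.37. The TG change minus the WT change was -3.45 at 40 ppm (interval -4.76 to -2.14, adjusted p = 0.000703) and -3.38 at 120 ppm (interval -4.70 to -2.07, adjusted p = 0.000458). The KO and TG contrasts share the WT animals, so they are not separate evidence. At 1 week the KO and TG controls lay 1.51 and 0.85 above the WT controls, without passing. Both the unlike controls and the unlike exposed levels enter these differences. Agr2 was the 1 member of 7 that passed in each KO contrast, beside 1.05% of genes lower at 40 ppm and 1.76% at 120 ppm.

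**Figure D1:**
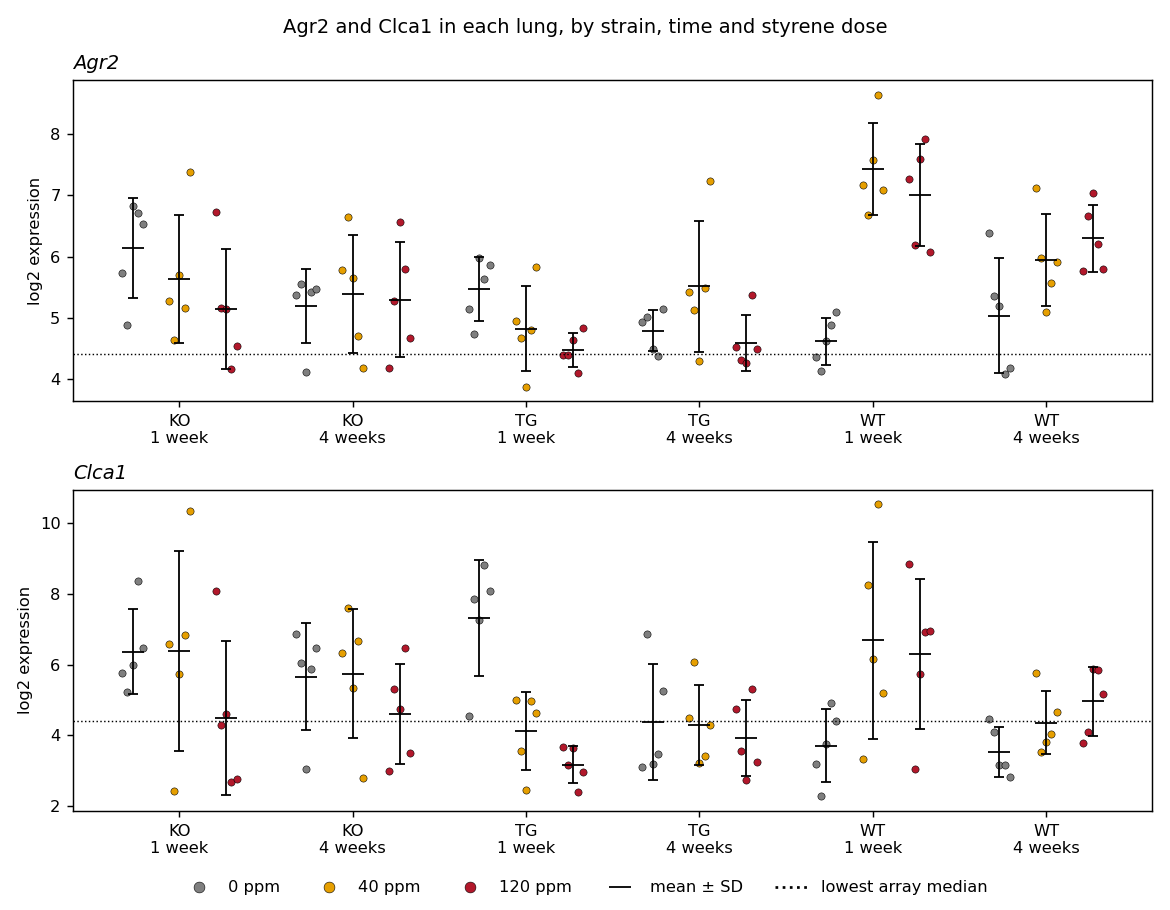
Log2 intensity of Agr2 and Clca1 in each animal (points) by strain, weeks of exposure and styrene dose in ppm, with mean and SD of 5 animals as bars. The dotted line marks the lowest array median, 4.42. WT animals exposed for 1 week lie above their controls for Agr2, while KO and TG animals do not, and Clca1 spreads widely within groups.

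At 4 weeks, WT Agr2 measured 4.09, 4.18, 5.20, 5.35 and 6.38 at 0 ppm. It measured 5.10, 5.58, 5.92, 5.98 and 7.12 at 40 ppm and 5.77, 5.81, 6.21, 6.67 and 7.04 at 120 ppm. Exposed and control animals overlapped at this time. The change was 0.90 at 40 ppm (interval -0.03 to 1.83, adjusted p = 0.995) and 1.26 at 120 ppm (interval 0.33 to 2.19, adjusted p = 0.492). None of the 7 members passed in WT lungs at 4 weeks, where 0.152% of genes did at 40 ppm and 0.439% at 120 ppm. The 4-week change minus the 1-week change was -1.91 at 40 ppm (interval -3.22 to -0.59, adjusted p = 0.308) and -1.13 at 120 ppm (interval -2.44 to 0.18, adjusted p = 0.810). A smaller change at 4 weeks was thus not shown by the test, and 0.532% and 0.883% of genes passed it at the 2 doses. Agr2 in KO lungs at 4 weeks averaged 5.19, 5.40 and 5.30 over rising dose, and in TG lungs 4.79, 5.52 and 4.60.

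Over all 18 groups, Agr2 was highest in WT at 40 ppm and 1 week, followed by WT at 120 ppm and 1 week, WT at 120 ppm and 4 weeks, and the KO controls at 1 week (6.14 ± 0.82). It was lowest in TG at 120 ppm and 1 week (4.48 ± 0.28). Group means spanned 2.95, while neighbours in the order never differed by more than the larger of their SDs. Of 90 animals, 16 were dim for Agr2.

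Clca1 was the most variable member, with a pooled SD between animals of 1.61 against 0.757 for Agr2. In WT lungs at 1 week it measured 2.28, 3.19, 3.77, 4.42 and 4.92 at 0 ppm. At 40 ppm the values were 3.33, 5.21, 6.16, 8.25 and 10.53, and at 120 ppm they were 3.06, 5.73, 6.92, 6.94 and 8.85. At each dose 4 of 5 exposed animals lay above all controls, and 1 lay among them. The change was 2.98 at 40 ppm (SE 0.99, interval 1.01 to 4.95, adjusted p = 0.0666) and 2.59 at 120 ppm (SE 0.99, interval 0.61 to 4.56, adjusted p = 0.105). Neither passed, and the control mean of 3.71 is dim. Without WT animal 1 at 40 ppm the 40 ppm change passed (3.82, adjusted p = 0.0138), and without WT animal 2 at 120 ppm the 120 ppm change did (3.40, adjusted p = 0.0305).

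In TG lungs the values ran the other way. At 1 week, Clca1 measured 4.56, 7.27, 7.86, 8.08 and 8.83 in TG animals at 0 ppm, the highest group mean of all 18 (7.32 ± 1.64). TG animals measured 2.47, 3.55, 4.62, 4.98 and 5.01 at 40 ppm and 2.40, 2.98, 3.17, 3.64 and 3.66 at 120 ppm. All 5 animals at 120 ppm lay below all 5 TG controls, and all 5 were dim, as was the 40 ppm mean of 4.13. The change of -4.15 at 120 ppm (SE 0.99, interval -6.12 to -2.18) did not pass over all genes (adjusted p = 0.127). Exact permutation gave its smallest possible p of 0.00794, which is 0.167 after adjustment over 84 such tests. With values below the dim level raised to it, a setting chosen after seeing the data and with no test, the change was -2.90. Without TG control animal 1 it was -4.84 and passed (adjusted p = 0.0332). At 40 ppm it was -3.19 (interval -5.16 to -1.22, adjusted p = 0.984).

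Clca1 in KO lungs at 1 week measured 5.24, 5.78, 5.99, 6.47 and 8.36 at 0 ppm, 2.42, 5.74, 6.58, 6.83 and 10.35 at 40 ppm, and 2.69, 2.78, 4.30, 4.60 and 8.08 at 120 ppm. The groups overlapped, and a single animal stood high at each exposed dose. The change was 0.02 at 40 ppm and -1.88 at 120 ppm, and neither passed.

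The TG change in Clca1 minus the WT change was -6.17 at 40 ppm and 1 week (SE 1.40, interval -8.96 to -3.38, adjusted p = 0.00563). At 120 ppm it was -6.73 (SE 1.40, interval -9.52 to -3.95, adjusted p = 0.00117). With Agr2 that made 2 of 7 members lower in each TG contrast, beside 1.39% of genes at 40 ppm and 3.42% at 120 ppm. The KO contrasts did not pass for Clca1, at -2.96 (adjusted p = 0.421) and -4.46 (adjusted p = 0.0686). Their size rests in part on dim values, since the TG means of 4.13 at 40 ppm and 3.17 at 120 ppm and the WT control mean of 3.71 all lie below 4.42. With values raised to the dim level the TG minus WT differences were -5.03 and -4.96, with no test. They also rest on 1 of the 2 Clca1 probe sets. The dimmer one, at a mean of 3.38, gave -0.24 and -0.28 for the same TG contrasts (adjusted p = 0.606 and 0.370), 0.04 and 0.15 for WT at 40 and 120 ppm, and -0.13 for TG at 120 ppm. The 2 probe sets correlated at 0.668 over the 18 group means and 0.297 between animals within groups, where the Agr2 pair reached 0.948 and 0.786.

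With all arrays weighted alike and no covariate, the secreted mucins did not pass in any exposed group. Muc5b, the brightest member with a mean of 8.31 over 90 animals, measured 6.73, 6.88, 7.83, 7.99 and 8.61 in WT lungs at 0 ppm and 1 week. It measured 7.73, 7.91, 7.97, 7.98 and 10.01 at 40 ppm and 6.46, 7.05, 7.52, 9.42 and 9.44 at 120 ppm. The groups overlapped, with 1 animal at 40 ppm and a pair at 120 ppm standing high. The change was 0.71 at 40 ppm (SE 0.52, interval -0.32 to 1.74, adjusted p = 0.548) and 0.37 at 120 ppm (interval -0.66 to 1.40, adjusted p = 0.765). In TG lungs at 120 ppm and 1 week Muc5b measured 5.53, 7.43, 7.58, 7.88 and 7.91, against 7.76, 8.43, 9.09, 9.48 and 9.61 in TG controls, a change of -1.61 (SE 0.52, adjusted p = 0.314).

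Muc5ac was dim in 74 of 90 animals and in 15 of 18 group means, over a range of 3.67 to 5.29. WT animals at 1 week measured 3.78, 3.92, 4.17, 4.19 and 4.22 at 0 ppm, 3.96, 4.16, 4.19, 5.08 and 5.29 at 40 ppm, and 3.73, 3.86, 4.26, 4.30 and 4.43 at 120 ppm. The 2 highest Muc5ac values of that series belonged to 40 ppm animals, and the other 3 lay near the controls. The change was 0.48 at 40 ppm (SE 0.18, adjusted p = 0.106) and 0.06 at 120 ppm (adjusted p = 0.906). With array weights the 40 ppm change was 0.47 and passed (adjusted p = 0.0356). Without WT animal 5 at 40 ppm it was 0.63 and passed (adjusted p = 0.0277).

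Both transcription factors were dim in nearly all lungs, and neither passed. Spdef was dim in 82 of 90 animals, with all between 3.46 and 4.75, and averaged 3.97, 4.07 and 4.14 in WT lungs at 1 week and 0, 40 and 120 ppm. Foxa3 was dim in 90 of 90 animals, between 2.57 and 4.14. Its WT values at 1 week were 2.73, 2.76, 2.87, 3.05 and 3.07 at 0 ppm, 2.91 to 3.46 at 40 ppm and 2.78 to 3.69 at 120 ppm. The WT change was 0.11 and 0.17 for Spdef (SE 0.15) and 0.35 and 0.33 for Foxa3 (SE 0.16) at 40 and 120 ppm, with adjusted p of 0.800 and 0.565, and 0.263 and 0.243. For Foxa3, 4 of 5 exposed WT animals lay above all controls at each dose. With array weights its change at 40 ppm passed (0.35, adjusted p = 0.0350), and without the 4 arrays of low weight its change at 120 ppm did (0.44, adjusted p = 0.0323), in each case between dim means. A change in either gene below the level these probe sets detect would not be seen.

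Tff2 was bright, at a mean of 7.53, and was not higher in exposed WT lungs. It measured 5.40, 6.35, 7.34, 7.72 and 8.19 in WT lungs at 0 ppm and 1 week, 5.68, 6.57, 6.58, 6.66 and 8.96 at 40 ppm, and 4.41, 5.98, 6.15, 7.77 and 8.24 at 120 ppm. The 3 groups overlapped throughout, and the change was -0.11 (interval -1.45 to 1.23) and -0.49 (interval -1.83 to 0.85). In TG lungs at 1 week, Tff2 was 4.41, 6.22, 6.49, 6.91 and 7.05 at 120 ppm, against 7.38, 8.10, 8.62, 8.86 and 9.15 in controls. The TG groups did not overlap, and the change of -2.20 (SE 0.68, interval -3.55 to -0.86) did not pass (adjusted p = 0.267).

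**Figure D2:**
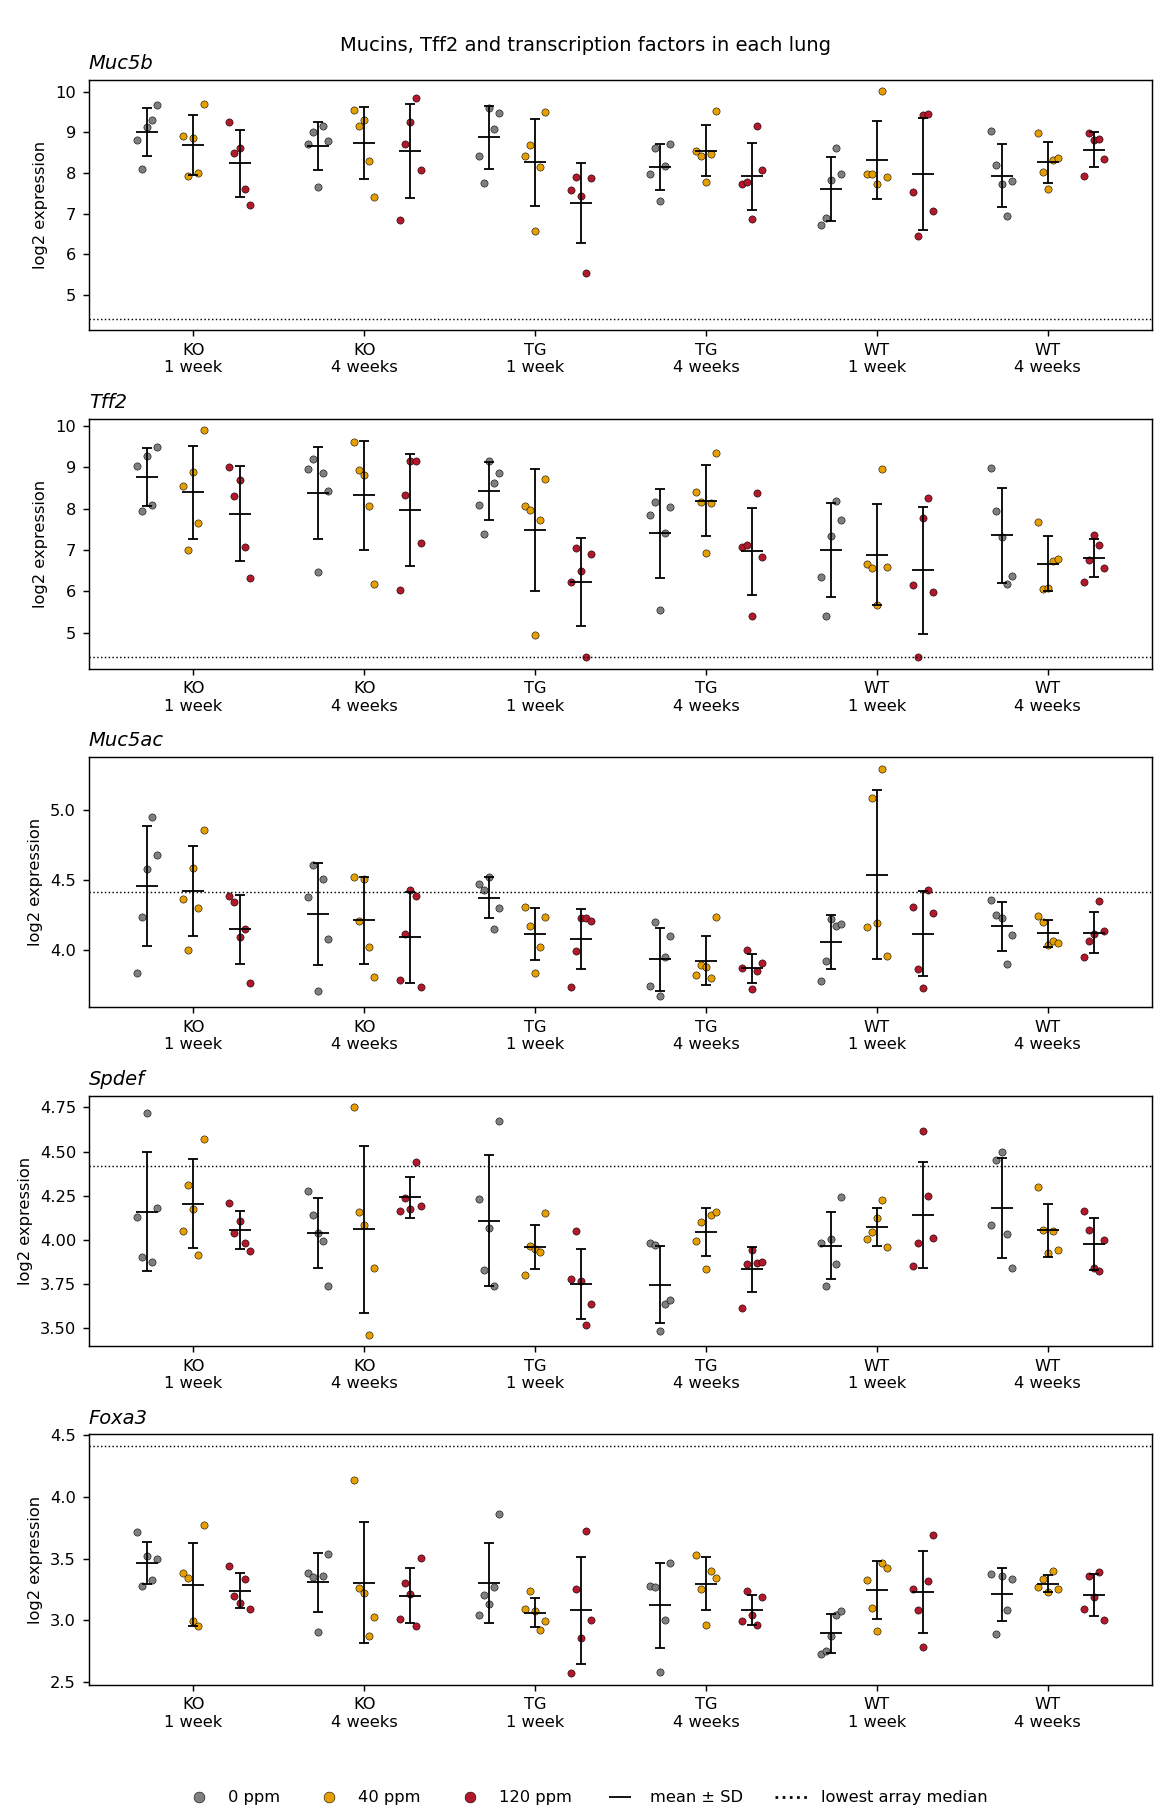
Log2 intensity of Muc5b, Tff2, Muc5ac, Spdef and Foxa3 in each animal (points) by strain, weeks and styrene dose in ppm, with mean and SD of 5 animals. The dotted line at 4.42 is the lowest array median; Foxa3 lies below it in 90 of 90 animals and Spdef in 82, while Muc5b lies above it in all.

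Considered as a group, the members in KO and TG lungs mostly lay below 0 at 1 week without passing. At 120 ppm and 1 week, 0 of 7 genes had a positive change in KO lungs (median -0.77, beside -0.02 over all genes). In TG lungs it was also 0 of 7 at 40 ppm (median -0.61) and at 120 ppm (median -0.99, beside -0.05 over all genes). At 40 ppm and 1 week in KO lungs 2 of 7 lay above 0 (median -0.18). Of all genes at 1 week, 50.5% and 44.7% lay above 0 in KO lungs at 40 and 120 ppm. In TG lungs 48.5% and 35.8% did. The members varied together within animals, so their signs are not separate observations. At 4 weeks the signs were mixed, with 4 and 2 of 7 above 0 at 40 and 120 ppm in KO lungs (medians 0.02 and -0.12) and 5 and 1 of 7 in TG lungs (medians 0.30 and -0.20). At that time 53.8% and 54.7% of all genes lay above 0 in KO lungs, and 60.9% and 56.9% in TG lungs. None of the 7 passed in any KO or TG exposure, where 0% of all genes did at 40 ppm and either time and at 120 ppm and 1 week in KO lungs, 0.0468% at 120 ppm and 1 week in TG lungs, and 0.0234% in KO and 0.0117% in TG lungs at 120 ppm and 4 weeks. At 4 weeks none passed in the strain differences either, beside 0.0234% and 0.0175% of genes for KO minus WT and 0.0117% and 0.0292% for TG minus WT at 40 and 120 ppm. Counts at an unadjusted p under 0.05 were 0 and 1 member at 40 and 120 ppm in KO lungs and 1 and 5 in TG lungs at 1 week. Over all genes the shares at that level were 3.57% and 5.15% in KO lungs and 4.43% and 9.26% in TG lungs. Clca1 and Tff2 were the 2 members with no overlap in TG lungs at 120 ppm, as were 0.55% of all genes on the lower side.

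Airway markers had lower means in the same TG lungs. The mean of 11 airway secretory markers (Scgb1a1, Scgb3a2, Scgb3a1, Cbr2, Aldh1a7, Bpifa1, Bpifb1, Pigr, Lypd2, Reg3g and Cldn10) was 10.28 in TG lungs at 120 ppm and 1 week (9.27 to 10.94), against 11.18 in their controls (10.55 to 11.51). No marker was dim in either group. With that mean as a covariate, added after the values were seen, the TG change at 120 ppm was -0.41 for Tff2, -0.29 for Muc5b, -2.54 for Clca1 and 0.03 for Agr2, and none passed. The mean followed Tff2 and Muc5b closely within groups, as given below, and was itself lower in these lungs. Smaller changes in them under this covariate were thus largely set in advance. The part of airway content in the TG changes was not tested. The 6 ciliated markers measured averaged 8.28 in these TG lungs (7.89 to 8.53) and 8.52 in controls (8.18 to 8.75).

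In WT lungs at 1 week the same secretory mean was 10.82 at 40 ppm (10.43 to 11.53) and 10.74 at 120 ppm (9.71 to 11.65), against 10.80 in controls (10.13 to 11.32). None of the 11 passed at either dose. Cyp2f2, which is also on that marker list, was left out of the mean. It fell in WT lungs by -0.33 at 40 ppm (adjusted p = 0.0130) and -0.28 at 120 ppm (adjusted p = 0.0384). Over all genes, 3.82% rose and 0.854% fell at 40 ppm, and 3.94% rose and 2.85% fell at 120 ppm. Ciliated markers averaged 8.79 at 40 ppm (8.69 to 9.01) and 8.71 at 120 ppm (8.41 to 9.07), against 8.58 (8.38 to 8.94), and 0 of 6 passed. With either mean as a covariate Agr2 still passed at both doses, at 2.30 and 2.09 with the ciliated mean and 2.79 and 2.46 with the secretory mean. Clca1 then passed with the secretory mean, at 2.95 (adjusted p = 0.0140) and 2.70 (adjusted p = 0.0236), and not with the ciliated mean. At 40 ppm the secretory mean as covariate also took Muc5b (0.69, adjusted p = 0.0236) and Muc5ac (0.48, adjusted p = 0.0450) past the threshold, neither of which passed at 120 ppm or with the ciliated mean. Without a covariate these changes were 0.71 and 0.48, so the covariate did not enlarge them. Both covariates were added after the values were seen. The share of all genes that passed under each is not given, so a gain particular to the members is not shown. The 4 neutrophil markers measured averaged 8.14 at 40 ppm (7.95 to 8.36) and 8.01 at 120 ppm (6.19 to 9.23), against 7.07 (6.54 to 7.70). Of these, 2 of 4 rose at each dose, beside 3.82% and 3.94% of all genes. Within groups, Agr2 and that neutrophil mean correlated at r = -0.05 over 90 animals (rho = -0.08, adjusted permutation p = 0.838), and the part of these cells in the Agr2 rise was not tested.

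**Figure D3:**
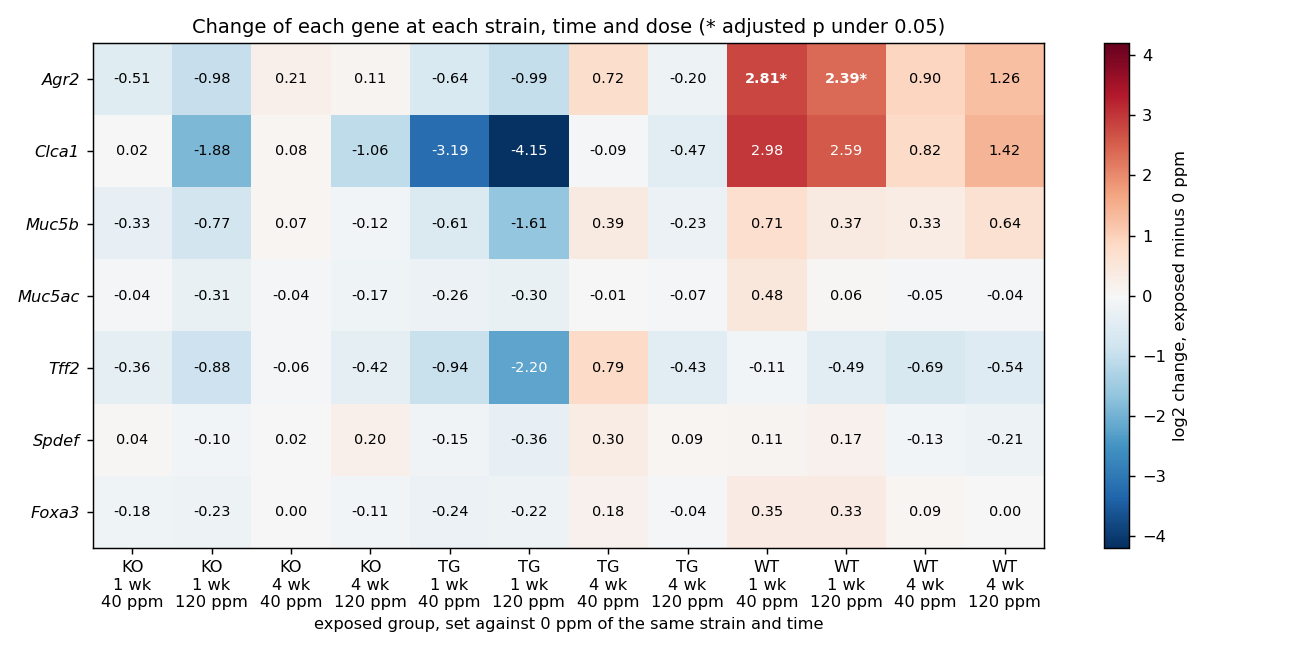
Log2 change of the 7 genes in the 12 exposed groups against 0 ppm of the same strain and week, as coloured cells with the value written in. An asterisk marks an adjusted p under 0.05; the 2 marked cells are Agr2 in WT lungs at 1 week, 2.81 at 40 ppm and 2.39 at 120 ppm.

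Unexposed lungs of the 3 strains were compared with both times averaged, 10 animals per strain. Means of all 7 members were higher in KO than in WT lungs, beside 59.0% of all genes. The median difference was 0.83 over the members and 0.02 over all genes. None of the members passed, beside 0.275% of all genes. Clca1 averaged 6.02 ± 1.34 in KO lungs (3.05 to 8.36) and 5.85 ± 2.19 in TG lungs (3.12 to 8.83), against 3.63 ± 0.84 in WT lungs (2.28 to 4.92). Of 10 unexposed animals, 9 KO and 6 TG lay above every WT animal. The difference from WT was 2.39 for KO (SE 0.70, interval 0.99 to 3.78, adjusted p = 0.152) and 2.23 for TG (SE 0.70, interval 0.83 to 3.62, adjusted p = 0.194), from the probe set that the second one did not match (0.05 and 0.12 there).

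Tff2 averaged 8.57 in KO, 7.91 in TG and 7.18 in WT lungs, and the KO minus WT difference was 1.39 (SE 0.48, interval 0.44 to 2.34, adjusted p = 0.348). Muc5b averaged 8.84 in KO, 8.52 in TG and 7.77 in WT lungs, with KO minus WT at 1.06 (SE 0.36, interval 0.34 to 1.79, adjusted p = 0.348). Agr2 averaged 5.66 in KO, 5.13 in TG and 4.83 in WT lungs, with KO minus WT at 0.83 (SE 0.33, adjusted p = 0.529). For TG minus WT, 6 of 7 members were above 0, beside 49.0% of all genes, and none passed, beside 0.287%. For TG minus KO, 0 of 7 were above 0, beside 38.2%, and none passed, beside 0.135%.

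Split by week, which was done after the averages were seen, the named strain differences had higher values at 1 week than at 4 weeks. For KO minus WT, Agr2 had 1.51 at 1 week and 0.15 at 4 weeks, Tff2 1.76 and 1.03, Muc5b 1.40 and 0.73, and Clca1 2.65 and 2.12. For TG minus WT, Clca1 had 3.61 at 1 week and 0.85 at 4 weeks, Tff2 1.42 and 0.04, and Muc5b 1.27 and 0.22. Spdef had 0.19 and -0.14 for KO minus WT, between dim means. None of the 7 passed at either week, beside 0.129% and 0.123% of genes for KO minus WT and 0.0877% and 0.164% for TG minus WT at 1 and 4 weeks. The difference between the weeks was tested too, with 0 of 7 members and 0% of genes passing, and was -1.36 for Agr2 in KO minus WT (interval -2.68 to -0.05, adjusted p = 1.00) and -2.76 for Clca1 in TG minus WT (interval -5.55 to 0.03, adjusted p = 1.00).

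These counts changed when airway markers entered the fit. With the ciliated mean as a covariate, 4 of 7 members passed for KO minus WT, namely Agr2 at 0.97 (adjusted p = 0.0336), Clca1 at 2.59 (0.0230), Muc5b at 1.23 (0.00145) and Tff2 at 1.61 (0.00114). For TG minus WT, 3 passed, namely Clca1 at 2.74, Muc5b at 1.16 and Tff2 at 1.29. With the secretory mean, Muc5b and Tff2 passed in both, at 0.71 and 0.91 for KO minus WT and 0.60 and 0.54 for TG minus WT. Both covariates were added after the values were seen, and both are means of genes measured in the same lungs. Over all genes, 47 passed for KO minus WT without a covariate, and 41 to 143 over the 12 alternative settings, which include both covariates. For TG minus WT, 49 passed without a covariate, and 34 to 208 over those settings. The share of all genes under each covariate is not given, so whether the members gained more than other genes is not shown.

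**Figure D4:**
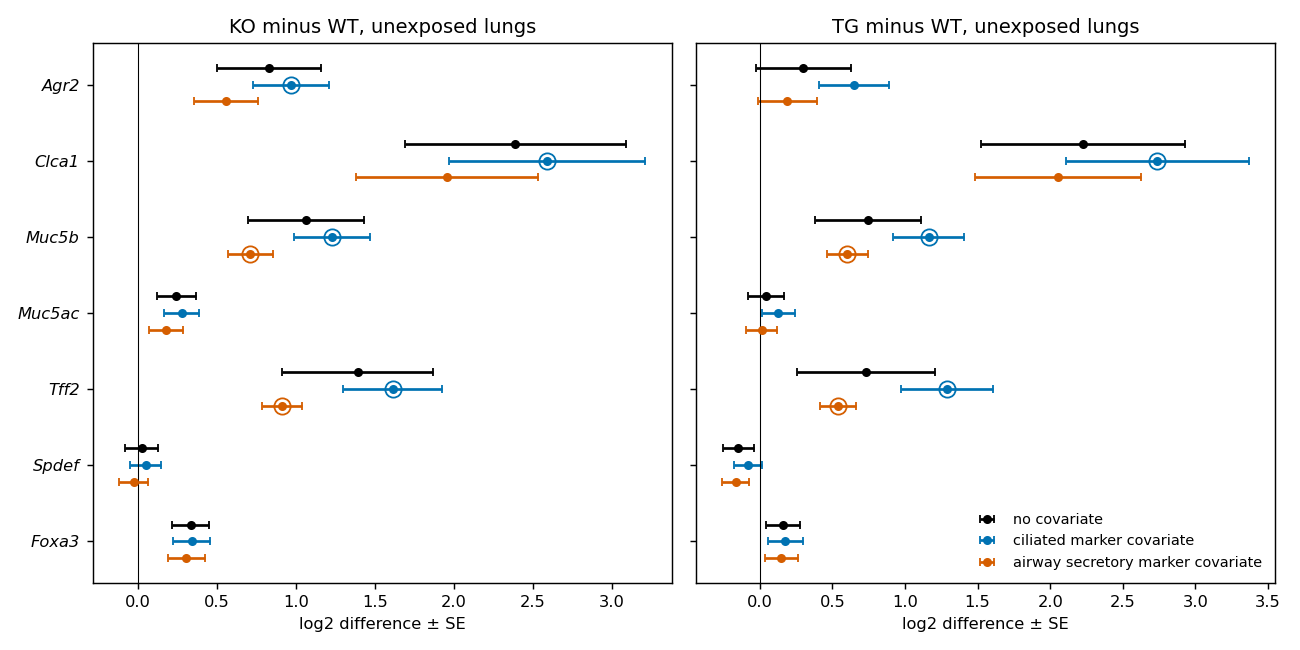
Log2 difference of unexposed KO minus WT and TG minus WT lungs (10 animals each) for the 7 genes, with SE bars, without a covariate and with the mean of ciliated or of airway secretory markers as one. Circled points have an adjusted p under 0.05; there are none without a covariate, 4 for KO and 3 for TG with the ciliated mean, and 2 each with the secretory mean.

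Within groups, several members varied together from animal to animal. Each value was taken as its deviation from its group mean, over 90 animals, and p came from 100000 permutations within groups. Of 21 pairs, 17 passed after adjustment by Pearson r. Muc5b and Tff2 formed the tightest pair (r = 0.940, rho = 0.932, r = 0.936 without the 2 animals farthest out, adjusted permutation p = 2.1e-05, where the raw p of 1e-05 is the smallest possible). Agr2 followed Muc5b (r = 0.820, rho = 0.855) and Tff2 (r = 0.803, rho = 0.835), and Clca1 followed Tff2 less closely (r = 0.648, rho = 0.617), all with the same adjusted permutation p. Clca1 and Spdef formed the loosest pair (r = 0.131, rho = 0.110, adjusted permutation p = 0.288), with Spdef dim in 82 of the 90 animals.

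The animals that were high in these genes were high in airway secretory markers. Among 84 relations with 12 marker lists, 19 passed by Pearson r. Calls by rho were not all the same. Agr2 and the basal markers passed by rho (0.535, adjusted permutation p = 8.4e-05) and not by r (0.264, adjusted permutation p = 0.210). The mean of the 11 secretory markers correlated with Tff2 at r = 0.966 (rho = 0.963, r = 0.962 without the 2 farthest, adjusted permutation p = 0.000105), with Muc5b at 0.924 (rho = 0.903) and with Agr2 at 0.799 (rho = 0.838). Clca1 reached 0.588 and Foxa3 0.229, the last with an adjusted permutation p of 0.189. Single markers differed widely in this, since Bpifb1, Reg3g and Scgb3a1 correlated with Tff2 at 0.954, 0.943 and 0.923, and Scgb1a1, the classical club cell secretoglobin, at 0.135. Scgb1a1 lay near the top of the scale, with a mean of 13.77 and a pooled SD of 0.0753. Ciliated markers correlated with Tff2 at 0.760 and Agr2 at 0.690, while markers of airway glands, which were all dim, correlated with Agr2 at 0.185. The part of airway content in these correlations was not tested.

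**Figure D5:**
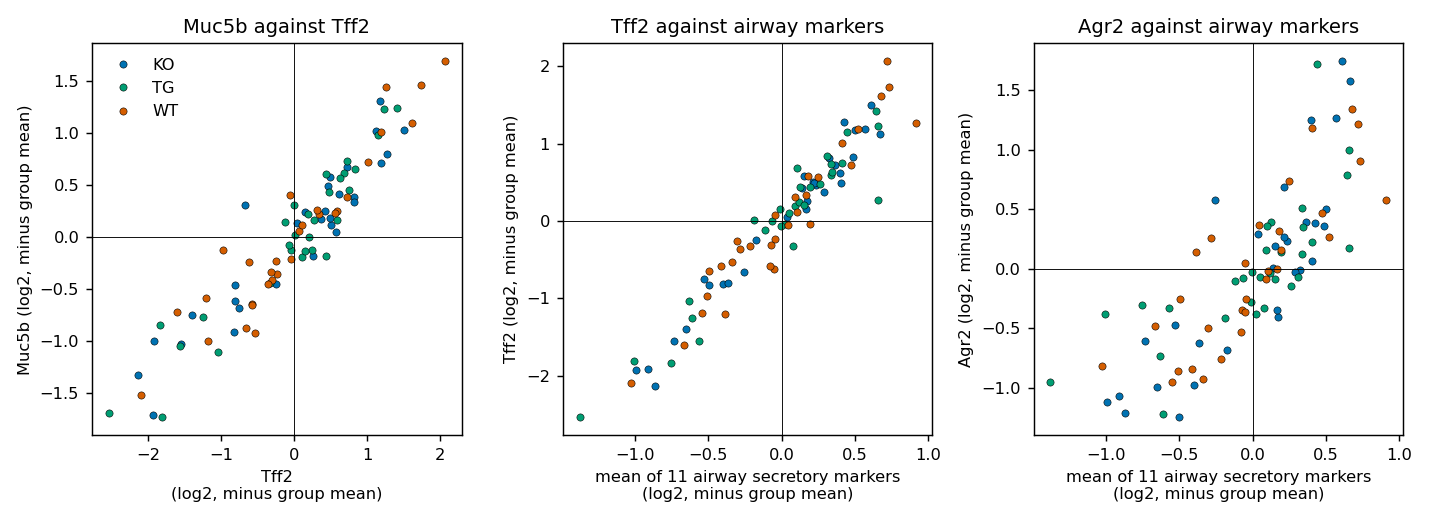
Deviation of each of 90 animals from its group mean (log2), with Muc5b against Tff2, and Tff2 and Agr2 each against the mean of 11 airway secretory markers. Colours mark the strain; the 3 panels show r of 0.940, 0.966 and 0.799.

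By likeness over the 18 group means, Agr2 went most closely with Prr29 (r = 0.955), Gsto1, an omega-class glutathione transferase (0.951), Lrrc51 (0.950), Ccdc189 (0.944) and Mok (0.944). Of these, all but Ccdc189 rose in WT lungs at 1 week and both doses, Prr29 by 0.89 at each dose and Gsto1 by 0.77 and 0.85. The groups with these rises were among the 18 by which the genes were picked, so the rises are not separate evidence. Clca1 went most closely with Fcgbp, a mucus protein (0.876), Nup188 (0.873) and Tprn (0.869). Tff2 went with Scgb3a1, a secretoglobin of airway secretory cells (0.938), Cldn22 (0.895) and Chad (0.881), and Muc5b with Cldn22 (0.940), Tmem158 (0.915) and Ormdl3 (0.861). Muc5ac went with Papss1, Lrrk1 and Dlg5 (0.902 to 0.889), Spdef with Ciapin1, Prmt7 and Exog (0.876 to 0.865), and Foxa3 with Ptprn2, Tmem158 and 4930507D10Rik (0.892 to 0.823). These are the highest of 17097 genes each and describe the group means only.

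Few other genes of the goblet cell programme passed in WT lungs at 1 week. Of 22 further genes of goblet cells and mucin assembly, 1 rose and 1 fell at each dose, with a median of 0.09 at 40 ppm and 0.10 at 120 ppm, and 10 of the 22 were dim in all 3 groups. Among all genes, 3.82% rose and 0.854% fell at 40 ppm, and 3.94% rose and 2.85% fell at 120 ppm. Retnlb, a resistin-like protein of goblet cells, rose by 0.61 (SE 0.13, adjusted p = 0.00144) and 0.50 (adjusted p = 0.00994) between dim means. Marcks, which helps mucin granules reach the surface, fell by 0.46 and 0.47 (adjusted p = 0.00295 and 0.00220). The TG minus WT difference in the 120 ppm change passed for 2 of the 22, Fcgbp, a protein of the mucus gel (-1.05, adjusted p = 0.0134), and Slc26a4, the anion exchanger pendrin (-2.30, adjusted p = 0.0359). That difference passed on the lower side for 3.42% of all genes. In WT lungs Slc26a4 had 1.39 and 1.40 without passing (adjusted p = 0.0859 and 0.0649).

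Of 7 other mucins measured among 10 listed, 2 rose in WT lungs at each dose and 5 did not pass, and both that rose are membrane mucins. Beside them, 3.82% of all genes rose at 40 ppm and 3.94% at 120 ppm. Muc4 rose by 1.38 at 40 ppm (SE 0.21, adjusted p = 1.52e-06) and 1.32 at 120 ppm (adjusted p = 3.61e-06), and Muc1 by 0.71 (SE 0.10, adjusted p = 6.64e-07) and 0.42 (adjusted p = 0.00459). Both changes were lower in KO and TG lungs by the test of the difference. By that test 1.05% and 1.76% of all genes were lower for KO minus WT at 40 and 120 ppm. For TG minus WT the shares were 1.39% and 3.42%. For Muc4 the KO minus WT difference was -1.48 at each dose, and the TG minus WT difference was -1.37 at 40 ppm and -1.65 at 120 ppm. The largest adjusted p among the 4 differences of Muc4 was 0.00338, and that of Muc1 was 0.0296.

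Upstream signals were looked at in lists of the type 2 cytokine and of the Egfr and Notch pathways, each of which can drive goblet cell formation. In the type 2 list, 2 of 22 measured genes rose in WT lungs at each dose, beside 3.82% and 3.94% of all genes at 40 and 120 ppm. Il33, an epithelial alarmin, rose by 1.15 and 0.82 (adjusted p = 9.07e-05 and 0.00803), and Retnla, a target of Il4 and Il13 in macrophages, rose by 2.12 and 2.19 (adjusted p = 7.96e-07 and 2.98e-07). The cytokine genes Il4, Il5 and Il13, singled out after their values were seen, were dim in all 3 WT groups, and the change of Il13 was 0.12 at 40 ppm (adjusted p = 0.510). Of 4 eosinophil markers 0 passed, and 3 of them (Prg2, Epx and Ccr3) were dim. In the Egfr and Notch list of 17 measured genes, Hey1 fell at 40 ppm (-0.52, adjusted p = 0.0458), and Egfr (-0.95, adjusted p = 0.0353) and Notch1 (-0.38, adjusted p = 0.0371) fell at 120 ppm. Over all genes, 0.854% fell at 40 ppm and 2.85% at 120 ppm.

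Chaperones and folding enzymes of the endoplasmic reticulum, where Agr2 works, did not rise with it. Of 20 such genes, 0 passed at 40 ppm, with a median of -0.07 beside 0.03 over all genes. At 120 ppm 1 fell, the stress regulator Atf4 (-0.40, adjusted p = 0.0399), with a median of -0.09 beside 0.00 over all genes. Of all genes, 3.82% rose and 0.854% fell at 40 ppm, and 3.94% rose and 2.85% fell at 120 ppm. At 40 ppm the smallest p belonged to Atf4 (-0.37, adjusted p = 0.0861) and the co-chaperone Dnajb9 (-0.23, adjusted p = 0.363). The disulfide isomerases Pdia4 and Pdia6, relatives of Agr2 singled out after their values were seen, had 0.11 and 0.01 at 40 ppm (adjusted p = 0.722 and 0.985).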

How the data were processed

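Whole-lung RNA was prepared with Trizol and RNeasy and hybridised to Affymetrix 3' IVT arrays, per the labels. The deposited table gives a log2 value for every probe set; the submitters' processing notes name RMA and Partek, with no versions in the sources used here. It held 45141 probe sets in 90 arrays with 0 missing values, and 104 control probe sets were left out. The platform annotation gave 1 gene symbol for 28898 probe sets, several for 551 and none for 15588, and only the first kind was named. RefSeq matched 7 of 7 members by Entrez ID.

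A linear model of 18 group means was fitted with limma 3.58.1 in R 4.3.3 to the brightest probe set of each gene (72 residual degrees of freedom), and Benjamini-Hochberg adjustment ran over all 17097 genes. The members were described in 27 comparisons. Single members were also tested by two-sided exact permutation of 5 against 5 animals, and correlations by permutation within groups (Python 3.11.15, NumPy 2.4.6, SciPy 1.17.1). The functions were tested on simulated data. The number of arrays limits the precision.

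The members, gene lists and tests were chosen with earlier results of these data known, and the Agr2 rise in WT lungs was among those results. Named genes were the 7 members, up to 4 genes of each list that passed by size, or the 2 with the smallest p where none did, and the 3 genes (5 for Agr2) most like each member. The alternatives changed the normalization (a further quantile step), the genes tested (those below the 40th percentile of mean signal removed, or each probe set on its own), the summary of a gene (median of its probe sets), the arrays in the fit (the compared groups alone, or without 4 arrays whose limma weight was below 0.25), and the model (trended and robust variance, array weights, a covariate from 12 poly-A control probe sets, replicate number as a block). Each animal was also left out once. The ciliated and airway secretory covariates, the raising of dim values of Agr2 and Clca1 to the dim level, and the split of unexposed lungs by week were chosen after seeing the data. Animals with the same replicate number did not deviate together (median correlation 0.069 over 765 pairs, against -0.020 over 3060 pairs of different number), so the numbers were not taken to pair animals.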

Additional observations from a re-analysis of the deposited data

Results flagged for a closer look

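The change in Agr2 at 1 week differed between strains by the test of that difference, at -3.31 and -3.37 for KO minus WT at 40 and 120 ppm and at -3.45 and -3.38 for TG minus WT. Agr2 in KO and TG controls lay 1.51 and 0.85 above WT controls at 1 week, without passing, and this enters those values. For Clca1 the TG minus WT difference passed at both doses, at -6.17 and -6.73, from the brighter of its 2 probe sets and with dim means in the WT controls and the exposed TG lungs. The TG controls had the highest Clca1 mean of all groups, and both terms enter these values.

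In 12 of 126 combinations of a gene with a group of 5 animals (7 genes in 18 groups), 1 animal stood far from the other 4. Chance gives about 1 in 20, or 6.3, if the combinations were independent, which they are not, since the genes varied together within animals. KO control animal 3 at 4 weeks was low in 3 genes, Agr2 (4.12), Clca1 (3.05) and Tff2 (6.46). Low values also stood apart for Muc5b in TG animal 4 at 120 ppm and 1 week (5.53), Tff2 in TG animal 3 at 40 ppm and 1 week (4.94), Tff2 in TG control animal 3 at 4 weeks (5.56) and Spdef in TG animal 1 at 120 ppm and 4 weeks (3.61). High values stood apart for Muc5b in WT animal 4 at 40 ppm and 1 week (10.01), Agr2 in TG animal 4 at 120 ppm and 4 weeks (5.38), Foxa3 in TG control animal 5 at 1 week (3.86), Muc5ac in TG animal 5 at 40 ppm and 4 weeks (4.23) and Spdef in KO animal 4 at 120 ppm and 4 weeks (4.44). Below the dim level of 4.42 lay the Agr2 value of 4.12, the Clca1 value of 3.05, those of Foxa3 and Muc5ac, and the Spdef value of 3.61.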

How the results depend on the processing

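Agr2 in WT lungs at 1 week passed in 22 of 22 settings at 40 ppm (2.30 to 2.99) and 22 of 22 at 120 ppm (1.98 to 2.62). Its KO minus WT difference passed in 32 of 32 at 40 ppm and 31 of 32 at 120 ppm, and its TG minus WT difference in 32 of 32 at each dose. The Clca1 TG minus WT difference passed in 31 of 31 at each dose, from -7.01 to -3.21 at 40 ppm and from -7.54 to -3.51 at 120 ppm, with the smallest sizes from the median over probe sets. None of these settings read the dimmer Clca1 probe set alone, which gave -0.24 and -0.28 without passing.

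Counts of members that passed moved as follows. In WT at 40 ppm and 1 week the count of 1 became 4 with array weights, 4 with the secretory mean as covariate, 2 with the poly-A one, and 1 to 2 with an animal left out (2 without WT animal 1 or 5 at 40 ppm). At 120 ppm it became 2 with the secretory covariate and also 2 after dropping the 4 low-weight arrays, and 1 to 2 with an animal left out (2 without WT animal 2). In WT at 120 ppm and 4 weeks, and for WT 4 weeks minus 1 week at 40 ppm, the count of 0 became 1 with the secretory covariate. In TG at 120 ppm and 1 week it was 0 to 1 with an animal left out (1 without control animal 1). For KO minus WT at 120 ppm and 1 week the count of 1 became 2 with the poly-A covariate, 0 with only the arrays compared, and 1 to 2 without an animal (2 without WT animal 2 or 3 or KO animal 1 at 120 ppm, each time by Clca1). For TG minus WT at 1 week the count of 2 became 1 at each dose when dim genes were left out, since only Agr2, Muc5b and Tff2 were then tested, and at 40 ppm it was 3 without WT animal 5 at 40 ppm (Muc5ac at -0.89, adjusted p = 0.0459). Unexposed KO minus WT gave 4 with the ciliated covariate, 2 with the secretory covariate and 1 with only the arrays compared, in place of 0, and TG minus WT gave 1 with array weights, 3 with the ciliated and 2 with the secretory covariate. The cause was not tested.

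The replicate number as a block changed no count of members, and 1 member still passed at 40 ppm in WT lungs at 1 week. Over all genes, counts moved more: 799 at 40 ppm in WT lungs at 1 week lay between 628 and 2446 over the 12 settings, 1161 at 120 ppm between 36 (only the arrays compared) and 2959, 405 for KO minus WT at 120 ppm between 6 and 1366, and 784 for TG minus WT at 120 ppm between 23 and 1752. Others were 214 for KO minus WT (157 to 497) and 261 for TG minus WT (157 to 619) at 40 ppm, 26 and 75 in WT lungs at 4 weeks (12 to 87 and 54 to 209), 91 and 151 for WT 4 weeks minus 1 week (28 to 306 and 0 to 367), and 47 and 49 for unexposed KO and TG minus WT (41 to 143 and 34 to 208). With an animal left out, the 1-week counts lay between 472 (without WT control animal 2) and 895 at 40 ppm and between 628 (WT 120 ppm animal 5) and 1844 (WT 120 ppm animal 3) at 120 ppm in WT lungs. For KO minus WT they lay between 126 (WT control animal 2) and 250 at 40 ppm and between 158 (WT 120 ppm animal 5) and 828 (WT 120 ppm animal 3) at 120 ppm. For TG minus WT they lay between 147 (TG control animal 5) and 312 at 40 ppm and between 300 (TG control animal 5) and 1858 (WT 120 ppm animal 3) at 120 ppm. In WT lungs at 4 weeks the lowest were 12 at 40 ppm (without WT 40 ppm animal 4) and 47 at 120 ppm (WT 120 ppm animal 4), so the shares of all genes beside the member counts move with single arrays. Signal limits Spdef, Foxa3 and Muc5ac, which were dim in nearly all lungs.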
